A study of Homo sapiens with 2 samples.

Results

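Integrin and laminin subunits, with the matrix ligands FN1, VTN and TNC, were described across the annotated cell classes of enteric neural crest cultures made from human pluripotent stem cells. The members were every gene row named as an integrin alpha subunit, an integrin beta subunit or a laminin alpha, beta or gamma chain, plus the 3 ligand genes. They came to 41 of 33694 genes, made up of 18 integrin alpha subunits, 8 integrin beta subunits, 12 laminin chains and 3 ligands. Both samples were made from H9, an established human embryonic stem cell line, by single-cell RNA-seq that counts the 3′ ends of transcripts. The day 10 group was an adherent monolayer grown on Geltrex, a basement membrane extract, after induction with BMP4, the TGF-beta receptor inhibitor SB431542, the GSK3 inhibitor CHIR 99021 and, in the later days, retinoic acid. The day 15 group consisted of free-floating spheres, termed crestospheres, that formed after the monolayer was detached on day 12 and moved to ultra-low-attachment plates in a medium with FGF2 and CHIR 99021. Each group was 1 library in which 2 biological repeats had been pooled, so day, culture format, medium and library cannot be told apart, and no test between the groups was possible. Values are counts of unique molecular identifiers (UMIs, 1 per captured transcript) as a share of all UMIs of a class, on the usual CPM scale, with an exact Poisson 95% interval that covers counting error only.

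Deposited cells numbered 9627 with 70488169 UMIs at day 10, against 6320 with 84976253 UMIs at day 15. After the authors' quality filters 7295 and 5336 cells were kept, and 102 cell barcodes occurred in both libraries. The kept cells carry the deposited classes enteric neural crest cell (ENCC), neuro-epithelial progenitor (NEP), cranial placode (CP, or CP1 and CP2), non-neural ectoderm (NNE) and mesenchymal (Mes). At day 10 these held 4921 ENCCs, 1811 NEP, 324 CP and 239 NNE cells, and at day 15 they held 4934 ENCCs, 208 CP1, 104 NEP, 47 Mes and 43 CP2 cells. The ENCC markers SOX10 and ERBB3 were among the 10 leading genes of the ENCC class in either library. Among the 10 leading genes of the cells deposited as NEP at day 15 were 2 NNE markers and no NEP marker, CP2 had no CP marker, CP1 had 2 neuroblast markers and 1 CP marker, and day 10 CP had 3 neuroblast and 2 CP markers. Day 10 NEP had 2 NEP markers and Mes had 2 Mes markers among their 10 leading genes. Day 10 NNE had no NNE marker among its 10 leading genes. The 7 NNE markers together were at 5732 CPM there and at 1309 CPM in day 10 NEP. So NEP, NNE, CP, CP1 and CP2 are used below only as the names of deposited clusters. Fold ratios between stages were taken only for the ENCC class and the whole library. Levels of the other classes at the 2 stages are set side by side as descriptions. The classes were drawn by the authors from these same genes, and FN1 and LAMA4 were among the genes used to annotate mesenchymal cells, so differences between classes are descriptions.

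Integrins are receptors of 1 alpha and 1 beta subunit that span the cell membrane, bind matrix proteins outside and connect to the actin cytoskeleton through adaptors such as talin, kindlin and integrin-linked kinase. Laminins are trimers of an alpha, a beta and a gamma chain that form the sheet of the basement membrane. Migrating neural crest cells use integrins with the ITGB1 subunit to move over laminin and fibronectin, and mice that lack Itgb1 in the neural crest fail to colonize the far end of the gut.

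Among the 13 members with at least 5 CPM in ENCCs on one side and 20 UMIs over both sides, 4 were past 2-fold higher at day 15 (log2 ratio of 1 or more on CPM + 1): ITGB1 (chr10:32900319-33005792, minus strand), LAMA4 (chr6:112108760-112254939, minus strand), FN1 (chr2:215360440-215436172, minus strand) and ITGB5 (chr3:124761948-124901418, minus strand), in GENCODE v29 on GRCh38. Their promoter sequences are shown because these members moved the same way. Each line is the longest stretch of the 250 bases before the RefSeq start (GRCh38.p14) that no annotated exon covers, 5′ to 3′ on the strand of the gene, with capitals on a match to the AP-2 motif GCCNNNGGC or the ETS motif CCGGAAG on either strand. The stretches lie at chr10:32958233-32958480 for ITGB1, chr3:124901419-124901668 for ITGB5, chr2:215436173-215436252 for FN1 and chr6:112254723-112254785 for LAMA4, each on the minus strand.
ITGB1 promoter: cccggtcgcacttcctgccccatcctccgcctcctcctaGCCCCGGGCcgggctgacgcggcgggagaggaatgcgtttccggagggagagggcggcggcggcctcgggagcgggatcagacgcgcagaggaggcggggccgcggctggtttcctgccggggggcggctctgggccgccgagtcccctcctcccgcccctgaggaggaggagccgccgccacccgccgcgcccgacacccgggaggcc
ITGB5 promoter: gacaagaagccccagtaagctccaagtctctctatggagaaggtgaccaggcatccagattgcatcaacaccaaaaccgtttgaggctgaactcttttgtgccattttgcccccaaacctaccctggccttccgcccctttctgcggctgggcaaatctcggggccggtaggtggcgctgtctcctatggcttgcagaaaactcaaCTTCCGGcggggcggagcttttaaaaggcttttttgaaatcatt
FN1 promoter: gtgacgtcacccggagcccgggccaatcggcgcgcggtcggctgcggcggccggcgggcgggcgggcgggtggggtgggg
LAMA4 promoter: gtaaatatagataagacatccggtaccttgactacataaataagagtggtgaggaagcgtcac
The ITGB1 stretch held 1 AP-2 match and was 78.2% G or C over 248 bases, whereas the 63 bases of LAMA4 held no match and were 39.7% G or C. ITGB5 held 1 ETS match, on the opposite strand, in 250 bases, and the 80 bases of FN1 held none. The whole 250-base window of FN1 held 1 AP-2 match. Only 1 RefSeq start per gene is shown. Further starts of ITGB5, not shown, had 2 and 1 AP-2 matches, and a further start of ITGB1 had no match. The stretches of ITGB1 and LAMA4 lie within the GENCODE spans given above. Over the whole 250-base windows, 29 of the 41 members had 36 promoters in the RefSeq table. AP-2 matches occurred in 9 of those 36 (25%) against 19.8% of all 35116 promoters, ETS matches in 3 (8.33%) against 8.52%, and matches to the SOX motif ACAAAG in 1 (2.78%) against 13.7%. These matches describe letters and not binding.

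The beta subunits of the cultures were almost entirely ITGB1. In ENCCs ITGB1 was at 57.1 CPM (54.6 to 59.5, 2108 UMIs) at day 10 and at 182 CPM (178 to 185, 10154 UMIs) at day 15. The day 15 level was 3.19-fold higher, a log2 ratio of 1.65 on the CPM + 1 scale, and was the largest ratio of any member past the level filter in ENCCs. In ENCCs 13 of the 41 members passed, 4 were called higher and 0 lower at day 15, where 8.26% of the 9257 genes that passed were higher and 6.02% were lower. The median log2 ratio was 0.57 over those 13 members and -0.14 over all genes that passed. With 1 library on each side these calls are counts past a fold and not tests.

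Every day 15 class held more ITGB1 than every day 10 class. At day 10 its level was 57.1 CPM in ENCCs, 68.6 CPM in CP (58.7 to 79.7), 97.2 CPM in NEP (92.1 to 102) and 122 CPM in NNE (107 to 139), and of neighbours in this order the intervals of ENCC and CP overlapped. At day 15 ITGB1 was at 182 CPM in ENCCs, 184 CPM in both Mes (150 to 223) and CP2 (145 to 231), 218 CPM in CP1 (200 to 238) and 255 CPM in NEP (226 to 285). The lowest class at day 15 was therefore above the highest at day 10. When each cell was thinned to 3000 UMIs, at least 1 ITGB1 UMI was found in 748 of 4919 day 10 ENCCs (15.2%, exact binomial 14.2 to 16.2) and in 2060 of 4934 day 15 ENCCs (41.8%, 40.4 to 43.1), with 2 and 0 shallower cells left out. Without thinning the ITGB1 shares were 33.8% and 83.2%, at a median of 7004 and 11082 UMIs per cell.

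**Figure D1:**
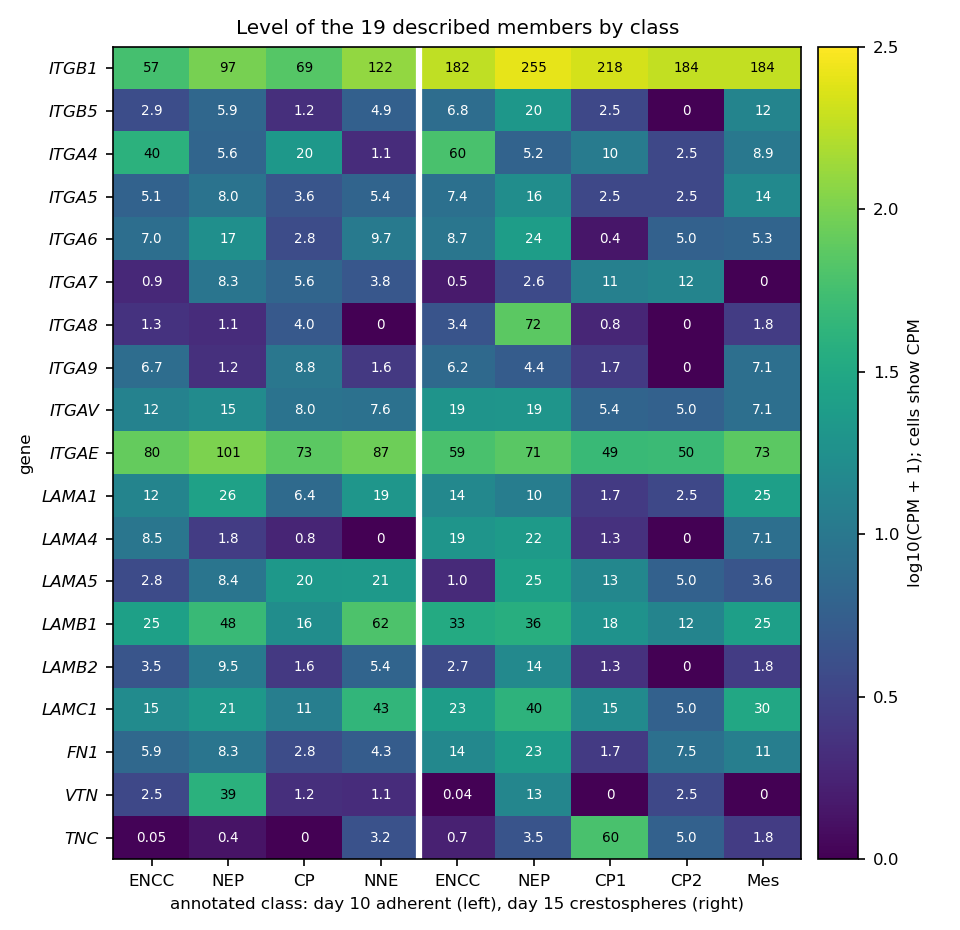
Level of the 19 members that reached at least 5 CPM and 20 UMIs in a class of at least 40 cells or in a whole library. Rows are genes, columns are the annotated classes at day 10 (left of the white line) and day 15 (right), colour is log10(CPM + 1) and the printed values are CPM. The lowest class level was 57.1 CPM for ITGB1 and 49.0 CPM for ITGAE. ITGA8, VTN and TNC stood out in single classes, and ITGA4 was highest in ENCCs at both stages.

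ITGB5, which pairs with ITGAV to form a vitronectin receptor, was the other beta subunit with a measurable level. It was at 2.87 CPM in day 10 ENCCs (2.35 to 3.47, 106 UMIs) and 6.82 CPM in day 15 ENCCs (6.15 to 7.54, 381 UMIs), a log2 ratio of 1.02. ITGB5 passed the level filter only through its day 15 value, and its ratio fell under 2-fold when each cell was weighted equally (0.99) or in phase G1 alone (0.90). The highest ITGB5 level was 20.0 CPM in day 15 NEP (12.7 to 30.1), and CP2 held no ITGB5 UMI. ITGB6 fell from 20 to 4 UMIs and ITGB8 from 15 to 5 UMIs between the ENCC classes, with ITGB6 at 0.541 and 0.0716 CPM and ITGB8 at 0.406 and 0.0895 CPM, all too low for the filter.

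ITGA4, whose subunit pairs with ITGB1 to bind fibronectin and VCAM1 and is carried by migrating neural crest cells, had its highest level in ENCCs at both stages (chr2:181457202-181536187, plus strand). At day 10 ITGA4 was at 39.7 CPM in ENCCs (37.6 to 41.7, 1465 UMIs), 20.3 CPM in CP (15.1 to 26.7), 5.56 CPM in NEP (4.39 to 6.93) and 1.08 CPM in NNE (0.131 to 3.91, 2 UMIs). Of these 4 classes ENCCs were highest, and no interval overlapped that of the next class. Day 15 ENCCs held 59.5 CPM (57.5 to 61.6, 3325 UMIs), CP1 10.0 CPM (6.44 to 15), Mes 8.92 CPM (2.90 to 20.8), NEP 5.23 CPM (1.92 to 11.4) and CP2 2.49 CPM (1 UMI), and the intervals of the last 4 overlapped. ITGA4 was the gene at place 26 of 9895 by ratio of day 10 ENCCs over the other kept cells and at place 36 of 10178 at day 15. The stage difference within ENCCs was smaller, at 1.5-fold and a log2 ratio of 0.57. An ITGA4 UMI was found in 11.8% of thinned day 10 ENCCs (10.9 to 12.7) and 16.7% at day 15 (15.7 to 17.8), against 1.28% of day 10 NEP cells (0.813 to 1.91) and 0 of 235 NNE cells, where a count of 0 still permits up to 1.28%.

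The other alpha subunits of fibronectin and vitronectin receptors were lower. ITGAV, which pairs with several beta subunits and binds RGD ligands, was at 11.9 CPM in day 10 ENCCs (10.8 to 13) and 18.9 CPM in day 15 ENCCs (17.8 to 20.1), which is 0.63 on the log2 scale. ITGA5, the alpha subunit of the classical fibronectin receptor, went from 5.14 CPM (4.44 to 5.93) at day 10 to 7.38 CPM (6.68 to 8.12) at day 15 (log2 ratio 0.45). Neither passed 2-fold, and both pairs of intervals were apart. At day 15 ITGA5 was at 15.7 CPM in NEP (9.30 to 24.8) and 14.3 CPM in Mes (6.16 to 28.1, 8 UMIs) and at 2.51 CPM in CP1 (0.922 to 5.47).

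ITGA8 and ITGA9 bind tenascin and other matrix ligands and differed in where they were found. ITGA8 (chr10:15513949-15720125, minus strand) was at 72.4 CPM in the 104 cells deposited as NEP at day 15 (57.6 to 89.7, 83 UMIs). At day 10 the highest annotated class was CP, at 3.99 CPM (1.91 to 7.33), and NEP held 1.07 CPM (0.598 to 1.76). In ENCCs ITGA8 was at 1.30 CPM (0.958 to 1.72) and 3.42 CPM (2.95 to 3.94), below the level filter at both stages. Of the thinned day 15 NEP cells 21 of 104 held an ITGA8 UMI (20.2%, 13 to 29.2), against 1.11% of day 15 ENCCs (0.841 to 1.45). ITGA9 was at 6.74 CPM in day 10 ENCCs (5.93 to 7.63) and 6.18 CPM in day 15 ENCCs (5.54 to 6.86), and these intervals overlapped. The ITGA9 level was 8.77 CPM in CP (5.50 to 13.3) and 1.21 CPM in NEP (0.705 to 1.94) at day 10.

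The laminin-binding alpha subunits ITGA6 and ITGA7 were higher in day 10 NEP than in day 10 ENCCs. ITGA6 was at 16.6 CPM in NEP (14.5 to 18.9) and 7.04 CPM in ENCCs (6.21 to 7.95) at day 10, and at 23.5 CPM in NEP (15.5 to 34.2) and 8.67 CPM in ENCCs (7.91 to 9.47) at day 15. CP1 held 1 ITGA6 UMI. For ITGA7 the level was 8.33 CPM in NEP (6.89 to 9.99), 5.58 CPM in CP (3.05 to 9.37) and 0.947 CPM in ENCCs (0.660 to 1.32) at day 10. At day 15 ITGA7 was at 11.3 CPM in CP1 (7.45 to 16.4, 27 UMIs), 0.501 CPM in ENCCs (0.333 to 0.725) and 2.62 CPM in NEP (3 UMIs). ITGA7 overlaps the antisense genes BLOC1S1 and METTL7B, and reads of overlapping genes can be told apart only where counting used strand. ITGA3, a further laminin receptor subunit, held 74 and 69 UMIs in the whole libraries and was at 2.07 CPM in day 10 NEP (1.38 to 2.97) against 0.135 CPM in day 10 ENCCs (0.0439 to 0.316).

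ITGAE was the member with the highest day 10 ENCC level, although its known partner was near 0. Its subunit pairs with that of ITGB7 to bind E-cadherin and is best known from T cells of epithelia. ITGAE was at 80.5 CPM in day 10 ENCCs (77.6 to 83.4) and 59.4 CPM in day 15 ENCCs (57.4 to 61.4), a log2 ratio of -0.43. It ranged from 73.4 CPM in CP to 101 CPM in NEP over the 4 day 10 classes, and from 49.0 CPM in CP1 to 73.1 CPM in Mes at day 15. ITGB7 held 4 and 2 UMIs in the 2 whole libraries. Of the 5 leukocyte markers, PTPRC held 0 and 4 UMIs, CD53 0 and 2, and SPI1 3 and 1 at day 10 and day 15. LCP1 held 602 and 123 UMIs, and CORO1A held 204 and 603. The leukocyte integrin subunits ITGAM and ITGAD held none in either library, and ITGB2 held 4 and 18 UMIs. The 5 leukocyte markers together were at 11.5 CPM at day 10, of which NNE had the highest class level with 153 CPM, and at 8.63 CPM at day 15. Within ENCCs ITGAE was at 70.1 CPM in G1 (65.6 to 74.9), 79.4 CPM in S (74.4 to 84.6) and 92.4 CPM in G2M (87.1 to 98.0) at day 10, and at 45.7 CPM, 66.8 CPM and 63.6 CPM in those phases at day 15. The kinase gene HASPIN, listed as GSG2, lies on the opposite strand within the ITGAE span and was at 1.10 CPM in G1, 4.43 CPM in S and 6.47 CPM in G2M at day 10, a part in the ITGAE count that was not tested.

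**Figure D2:**
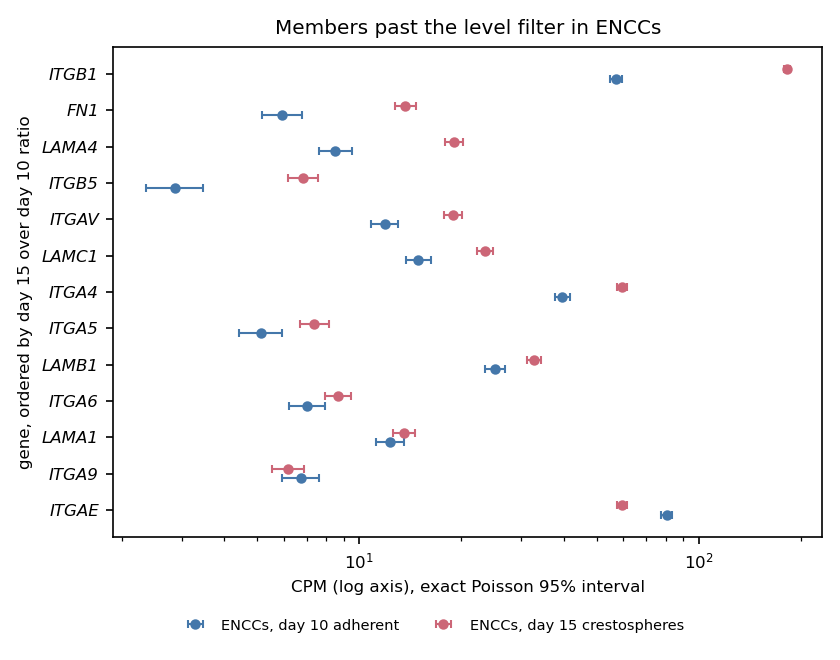
CPM (log axis) of the 13 members past the level filter in ENCCs, ordered by the ratio of day 15 over day 10. Points are the summed level of the class in 1 library, lines are exact Poisson 95% intervals. ITGB1 moved from 57.1 to 182 CPM, and ITGAE is the member with intervals apart in the other direction.

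Among the laminin chains LAMB1 and LAMC1, the beta and gamma chains shared by several trimers, had the highest levels in ENCCs. LAMB1 was at 25.1 CPM in day 10 ENCCs (23.5 to 26.8) and 32.7 CPM in day 15 ENCCs (31.2 to 34.2), and LAMC1 at 14.9 CPM (13.7 to 16.2) and 23.5 CPM (22.2 to 24.8). Their log2 ratios of 0.37 for LAMB1 and 0.62 for LAMC1 were under 2-fold with intervals apart. The highest day 10 levels were in NNE, at 62.3 CPM for LAMB1 (51.4 to 74.8) and 42.8 CPM for LAMC1 (33.9 to 53.3). NEP followed with 47.9 CPM for LAMB1 (44.4 to 51.7) and 20.7 CPM for LAMC1 (18.3 to 23.2), and the LAMB1 intervals of NNE and NEP overlapped slightly. At day 15 LAMB1 was at 35.7 CPM in NEP (25.6 to 48.5) and 18.0 CPM in CP1 (13 to 24.2). LAMB1 overlaps the antisense gene DLD at one end.

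The alpha chains differed in the class where each was highest. LAMA4, an alpha chain of vessel, muscle and nerve basement membranes, was at 8.50 CPM in day 10 ENCCs (7.58 to 9.49, 314 UMIs) and 19.1 CPM in day 15 ENCCs (17.9 to 20.2, 1065 UMIs), a 2.24-fold higher level and a log2 ratio of 1.08. The other day 10 classes held LAMA4 at 1.78 CPM in NEP (1.15 to 2.63), 0.798 CPM in CP (2 UMIs) and 0 UMIs in NNE. Day 15 NEP was at 21.8 CPM (14.1 to 32.2), which overlapped day 15 ENCCs, and Mes held 4 LAMA4 UMIs (7.13 CPM, 1.94 to 18.3). A LAMA4 UMI occurred in 2.64% of thinned day 10 ENCCs (2.21 to 3.13), 5.25% at day 15 (4.64 to 5.91) and 0.222% of day 10 NEP cells (0.0606 to 0.569).

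LAMA5, the alpha chain of most epithelial basement membranes, was low in ENCCs. It was at 21.1 CPM in NNE (15 to 28.9), 20.3 CPM in CP (15.1 to 26.7), 8.41 CPM in NEP (6.96 to 10.1) and 2.76 CPM in ENCCs (2.25 to 3.35) at day 10. At day 15 LAMA5 was at 25.3 CPM in NEP (16.9 to 36.3), 13.4 CPM in CP1 (9.16 to 18.9) and 1.00 CPM in ENCCs (0.757 to 1.30). The intervals of NNE and CP overlapped, and ENCCs had the lowest level at both stages, with overlap at day 15 with Mes (2 UMIs) and CP2 (2 UMIs). LAMA5 overlaps the antisense gene ADRM1. LAMA1, the alpha chain of early embryonic basement membranes, was at 26.0 CPM in NEP (23.4 to 28.8), 19.5 CPM in NNE (13.7 to 27.0), 12.3 CPM in ENCCs (11.2 to 13.5) and 6.38 CPM in CP (3.65 to 10.4) at day 10. Its level in day 15 ENCCs was 13.6 CPM (12.6 to 14.6), and the intervals of the 2 stages overlapped. LAMB2 was at 9.47 CPM in NEP (7.93 to 11.2) and 3.55 CPM in ENCCs (2.96 to 4.21) at day 10. At day 15 it was at 13.9 CPM in the cells deposited as NEP (7.97 to 22.7) and 2.69 CPM in ENCCs (2.27 to 3.15).

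The epithelial laminin chains LAMA3 and LAMB3 were nearly absent. LAMA3 held 5 UMIs in each whole library, and LAMB3 held 2 at day 10 and 1 at day 15. ITGB4, the hemidesmosome beta subunit, held 36 and 15 UMIs. LAMA2, the muscle and nerve alpha chain, held 22 UMIs in day 10 ENCCs and 1 UMI in day 15 ENCCs.

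**Figure D3:**
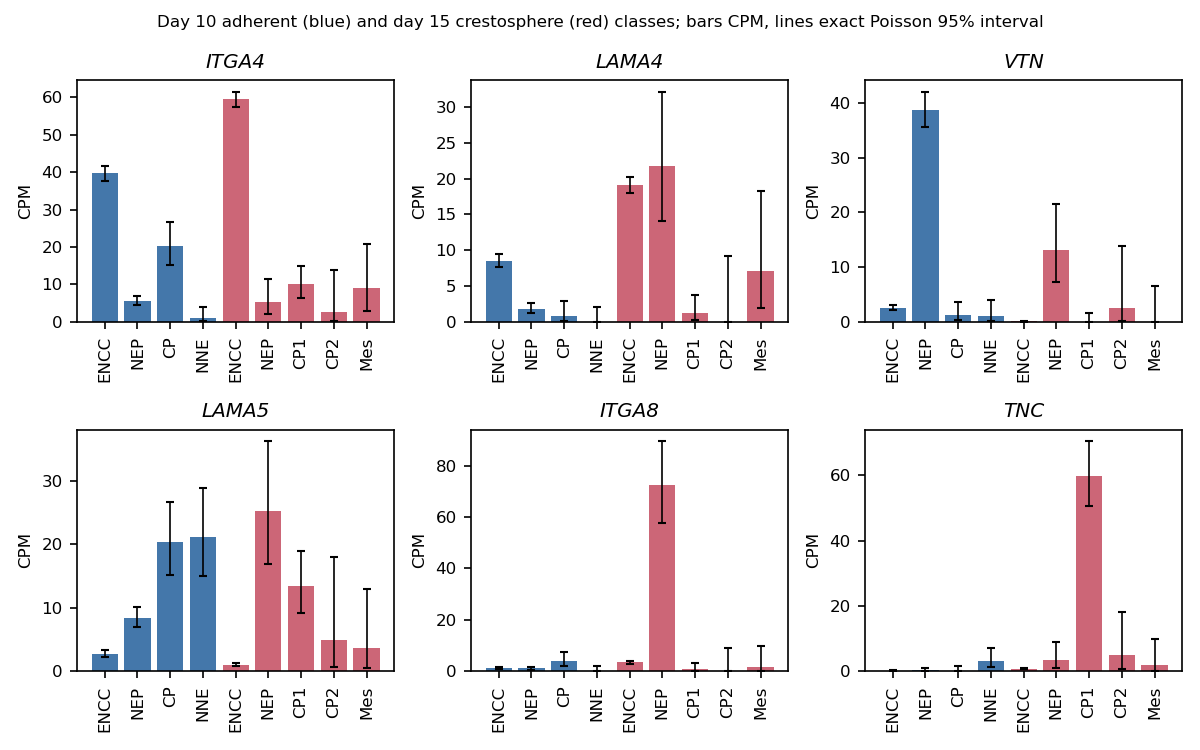
CPM of 6 members by annotated class, with day 10 in blue and day 15 in red. Bars are summed levels of the class in 1 library and lines are exact Poisson 95% intervals. ITGA4 was highest in ENCCs, VTN in day 10 NEP, ITGA8 in day 15 NEP, TNC in CP1, and LAMA5 was lowest in ENCCs.

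Of the ligands, FN1, which encodes fibronectin, was at 5.93 CPM in day 10 ENCCs (5.17 to 6.77, 219 UMIs) and 13.7 CPM in day 15 ENCCs (12.7 to 14.7, 763 UMIs). The day 15 level was 2.30-fold higher, a log2 ratio of 1.08, and in phase G1 alone the FN1 ratio was 0.70. FN1 was at 22.7 CPM in day 15 NEP (14.8 to 33.2) and 10.7 CPM in Mes (3.93 to 23.3, 6 UMIs), where the interval included the ENCC level. In day 10 NEP it was at 8.33 CPM (6.89 to 9.99).

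VTN, which encodes vitronectin (chr17:28367276-28373091, minus strand), was found mainly in NEP at day 10. NEP was at 38.7 CPM (35.5 to 42.1, 543 UMIs), ENCCs at 2.52 CPM (2.03 to 3.08, 93 UMIs), CP at 1.20 CPM (3 UMIs) and NNE at 1.08 CPM (2 UMIs). Of the 93 VTN UMIs in day 10 ENCCs, 71 were in the 256 cells that carried the ENCC class but no subcluster number, at 31.6 CPM (24.7 to 39.8). The other 22 were in the 4665 numbered ENCCs, at 0.634 CPM (0.397 to 0.960). The NEP markers together were at 1135 CPM in the unnumbered cells and at 39.3 CPM in the numbered ENCCs. At day 15 VTN held 2 UMIs in ENCCs and 15 in NEP (13.1 CPM, 7.32 to 21.6). In the whole library VTN was at 12.9 CPM at day 10 and 0.271 CPM at day 15, a log2 ratio of -3.46. A VTN UMI was found in 209 of 1798 thinned day 10 NEP cells (11.6%, 10.2 to 13.2) and in 0.107% of numbered ENCCs (0.0348 to 0.250). VTN lies within the span of the antisense gene SARM1, which held 153 and 446 UMIs in the whole libraries. A part of SARM1 in the VTN count was not tested.

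TNC, which encodes tenascin C (chr9:115019578-115118257, minus strand), had its highest class level in CP1, while most of its UMIs were in cells removed by the quality filters. At day 15 CP1 was at 59.9 CPM (50.5 to 70.5, 143 UMIs), NEP at 3.49 CPM (4 UMIs), CP2 at 4.98 CPM (2 UMIs) and ENCCs at 0.698 CPM (0.497 to 0.955, 39 UMIs). A TNC UMI occurred in 26 of 208 thinned CP1 cells (12.5%, 8.33 to 17.8) and in 0.142% of day 15 ENCCs (0.0571 to 0.292). Day 10 held 20 TNC UMIs in all, 6 of them in NNE and none in CP. The removed cells held 524 of the 713 day 15 TNC UMIs (73.5%) and CP1 held 143.

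Over the whole libraries 17 members passed the level filter, 3 were called higher at day 15 and 1 lower, where 8.64% of 9904 genes were higher and 8.71% lower. The 3 higher members were TNC (0.284 and 8.39 CPM), LAMA4 (5.45 and 16.4 CPM) and ITGB1 (73.2 and 185 CPM), and the lower member was VTN. From whole-library values alone, a change in the number of cells of a class and a change in RNA per cell cannot be told apart. TNC and VTN passed the filter only through the side on which they were high. Without the removed cells TNC was at 3.13 CPM at day 15 and no longer passed.

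Within day 10 ENCCs the numbered subclusters 1 to 4 were close to each other for ITGB1 and ITGA4. ITGB1 was at 54.9, 53.6, 53.9 and 63.0 CPM in subclusters 1 to 4 and at 90.7 CPM in the unnumbered ENCCs (78.7 to 104). ITGA4 was at 41.5, 42.1, 36.1 and 43.4 CPM in the numbered subclusters and at 13.3 CPM in the unnumbered cells (9.0 to 19). The intervals of the 4 numbered subclusters overlapped for both genes, and the unnumbered cells stood apart from them. The unnumbered cells also held more ITGA7 (8.0 CPM, against 0 to 0.523 CPM in subclusters 1 to 4), LAMB1 (44.5 CPM, against 18.2 to 29.1 CPM) and LAMA1 (23.6 CPM, against 6.68 to 12.7 CPM). The NEP markers together were at 1135 CPM in these cells, 39.3 CPM in numbered ENCCs and 1440 CPM in day 10 NEP. The ENCC markers together were at 632, 2193 and 305 CPM in that order. So the unnumbered cells are not read here as a crest subset. Subcluster 4 held more LAMA5 (9.41 CPM, 5.01 to 16.1) than subcluster 1 (1.83 CPM, 1.32 to 2.47) and less LAMA4 (2.17 CPM, 3 UMIs, against 9.02 CPM).

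At day 15 subcluster 4′ stood apart for ITGA4, at 35.0 CPM (26.2 to 45.7) against 62.0, 58.8 and 61.1 CPM in subclusters 1′ to 3′. ITGB1 was highest in 2′ (193 CPM, 187 to 198), followed by 3′ (178 CPM, 169 to 188), 1′ (170 CPM, 164 to 176) and 4′ (152 CPM, 133 to 173), where only 2′ was apart from 1′ and 4′ and all of them were above every day 10 ENCC subcluster. ITGA9 held 1 UMI in subcluster 4′ (0.660 CPM) against 5.25 to 6.89 CPM in the other 3. ITGA5 was at 5.66 CPM in 2′ (4.80 to 6.64) and 10.6 CPM in 3′ (8.50 to 13.1). Over the numbered subclusters FN1 ranged from 9.23 CPM in 4′ to 16.6 CPM in 3′ (13.9 to 19.6), and LAMA4 from 11.2 CPM in 4′ (6.53 to 18.0) to 21.8 CPM in 3′ (18.8 to 25.3).

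**Figure D4:**
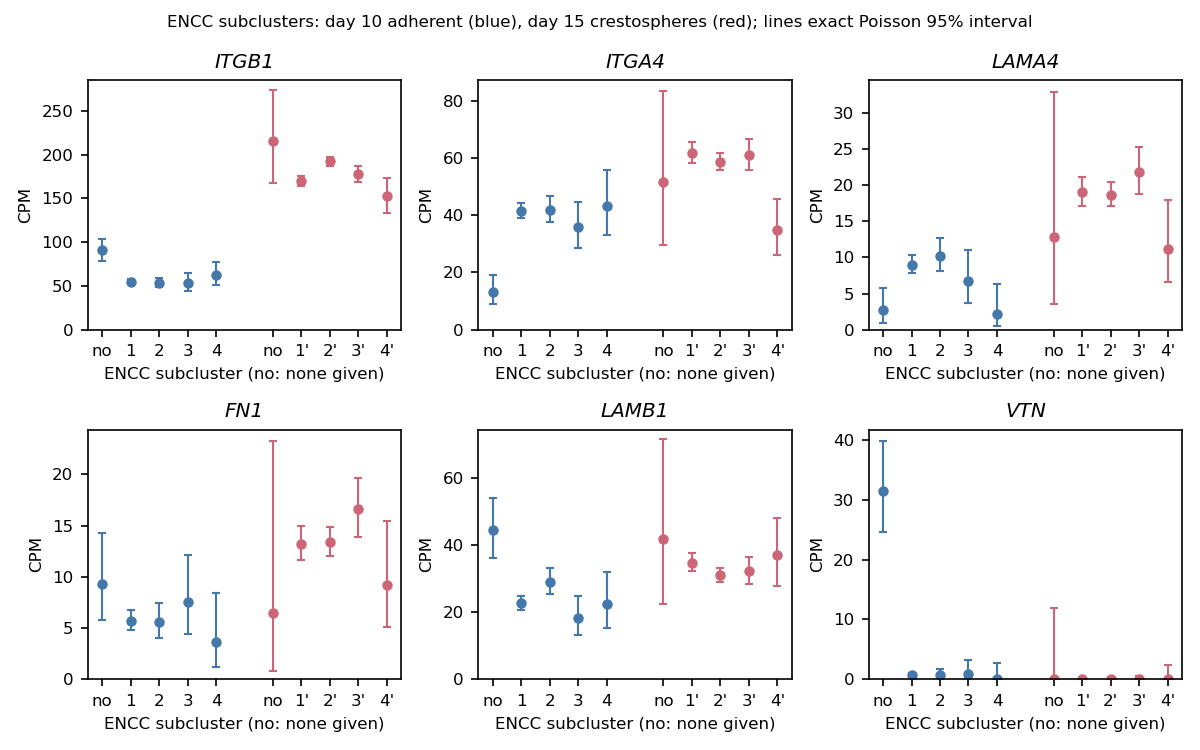
CPM of 6 members in the deposited ENCC subclusters, with "no" for ENCCs that carry no subcluster number. Points are summed levels in 1 library and lines are exact Poisson 95% intervals, wide where a subcluster had few cells. All day 15 subclusters were above all day 10 subclusters for ITGB1, and 71 of the 93 VTN UMIs of day 10 ENCCs were in the unnumbered cells.

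By predicted cell cycle phase, ITGB1 in ENCCs was at 53.6 CPM in G1 (49.6 to 57.7), 56.5 CPM in S (52.3 to 60.9) and 61.2 CPM in G2M (56.9 to 65.8) at day 10. At day 15 it was at 160 CPM in G1 (154 to 166), 188 CPM in S (182 to 193) and 198 CPM in G2M (191 to 206). The ITGB1 level was thus higher at day 15 in each phase. ITGA4 was at 42.6, 40.03 and 36.2 CPM in G1, S and G2M at day 10 and at 55.5, 60.3 and 63.2 CPM at day 15. ITGA5 was highest in G1 at day 15, at 9.75 CPM (8.34 to 11.3) against 6.41 CPM in S (5.43 to 7.51).

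Summed over the 26 integrin subunits, day 10 ENCCs held 218 CPM (213 to 223) and day 15 ENCCs 357 CPM (352 to 362), a log2 ratio of 0.71. The sum without ITGB1 was 161 CPM in day 10 and 175 CPM in day 15 ENCCs. It includes ITGAE, which was lower at day 15 (80.5 and 59.4 CPM). Without ITGAE but with ITGB1 the sum was 137 and 297 CPM. The 12 laminin chains summed to 68.0 CPM at day 10 (65.3 to 70.7) and to 92.7 CPM at day 15 (90.2 to 95.3), with a log2 ratio of 0.45. The laminin sum was higher in NNE (160 CPM, 142 to 179) and NEP (117 CPM, 111 to 123) than in ENCCs at day 10, and at day 15 it was 152 CPM in NEP (130 to 176) and 50.7 CPM in CP1 (42.0 to 60.5). FN1, VTN and TNC together were at 8.50 CPM and 14.4 CPM in ENCCs, a log2 ratio of 0.76. Without FN1 the ratio was -1.81, on 95 UMIs at day 10 and 41 UMIs at day 15. Most of those day 10 UMIs were VTN UMIs of the unnumbered ENCCs. The sum without FN1 was not computed for the numbered ENCCs alone, so -1.81 does not describe them.

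The remaining 22 members did not reach the level for a description by class, and none held more than 177 UMIs in a library. ITGAM and ITGAD held no UMI in either library, and 5 members held at most 3 UMIs in each. Among the 28 members under the filter in ENCCs, ITGA8, ITGA11 and TNC were higher at day 15 with intervals apart. VTN, LAMA5, LAMA2, ITGB6, ITGB8 and ITGA2B were lower with intervals apart. The share of all genes under the filter with intervals apart was not computed, so these names are no result about the members as a group. ITGA11, a collagen receptor subunit, held 11 UMIs in day 10 and 49 UMIs in day 15 ENCCs, and ITGA2B, the platelet subunit, held 34 and 23, while the platelet genes PF4, PPBP and GP9 held none in either library. The collagen receptor subunit ITGA1 was at 3.85 CPM in day 10 NEP (2.89 to 5.02, 54 UMIs) and at 6.22 CPM in the unnumbered day 10 ENCCs (14 UMIs). ITGA2, of the same kind, was at 8.72 CPM in day 15 NEP (4.18 to 16.0, 10 UMIs). ITGA1 shares its strand and span with PELO, so its reads are uncertain.

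Of 21 genes for intracellular adaptors of integrins 17 passed the filter in ENCCs, 1 was called higher and 0 lower at day 15, where 8.26% and 6.02% of all genes were, with a median log2 ratio of 0.13. The 1 was ZYX, which encodes the focal adhesion protein zyxin, with a day 10 level of 4.90 CPM against 16.2 CPM at day 15, and it passed the filter only through the latter. TLN1, which encodes talin, was at 47.2 and 56.0 CPM, ILK, the integrin-linked kinase, at 49.2 and 62.5 CPM, and FERMT2, which encodes a kindlin, at 40.1 and 30.2 CPM.

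Among basement membrane partners of the laminins more genes were lower than higher at day 15. Of 16 genes 10 passed in ENCCs, with 1 higher and 3 lower at day 15 and a median log2 ratio of -0.61. AGRN, which encodes agrin, had 4.22 CPM in day 10 and 10.8 CPM in day 15 ENCCs. The collagen genes COL4A5 (20.8 and 6.2 CPM), COL4A6 (13 and 0.537 CPM) and COL18A1 (12.9 and 1.00 CPM) were the lower members, while NID1, which encodes the laminin binder nidogen, was at 50.9 and 34.3 CPM and not past 2-fold. Among 9 other laminin receptors 7 passed, the syndecan genes SDC3 (4.11 and 21.4 CPM) and SDC1 (7.23 and 19.8 CPM) were higher and SDC4 (6.12 and 1.79 CPM) was lower, with a median of -0.19.

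Other integrin ligands had the lowest median of the 4 lists. Of 32 genes 7 passed in ENCCs, 2 were higher and 4 lower at day 15, with a median log2 ratio of -1.53. SPP1, which encodes osteopontin, was at 203 and 13.2 CPM at day 10 and day 15, COL1A1 at 68.2 and 2.24 CPM, COL1A2 at 424 and 146 CPM, and LTBP1, a binder of latent TGF-beta, at 7.09 and 1.22 CPM. The higher genes were FBN2, which encodes a fibrillin, at 11.6 and 25.5 CPM, and L1CAM, an adhesion molecule of neural crest cells and axons, at 0.379 and 9.94 CPM. AGRN, SDC3 and L1CAM passed the filter only through their day 15 values. COL4A6, COL18A1, SDC4, COL1A1 and LTBP1, all called lower, passed it only through their day 10 values. These 4 lists were chosen by role and describe only the counts given here, against a background of 8.26% higher and 6.02% lower.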

How the data were processed

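Single-cell 3′ RNA-seq had been run on day 10 adherent and day 15 crestosphere cultures, 1 library each. Per the labels, the deposited tables hold raw UMI counts per gene and cell. The submitters' processing notes name GRCh38, Cell Ranger and Seurat 4.0.4, and the study's methods name kallisto, bustools and Seurat. The authors' deposited metadata give UMI and gene counts, mitochondrial and ribosomal percent, a novelty score (not used), cell cycle phase, cell class and subcluster. The counts per cell summed to the metadata totals for all 9627 and 6320 cells. No doublet caller was run here. The study's methods name no doublet removal. The study removed cells by lower and upper limits on genes per cell, an upper limit on UMIs and a limit on mitochondrial percent. Its methods also describe the removal of clusters below average in genes or counts. The cells labelled as low quality had a median of 3679 UMIs at day 10 and 21367 at day 15, and stay out of the classes.

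For each class, the UMIs of a gene were added up and divided by the class total (CPM). Intervals are exact Poisson, and shares of cells have exact Clopper-Pearson intervals (95%) after thinning each cell to 3000 UMIs. A count of 0 was given an upper limit of 3 counts. Both cover counting error only. Ratios are log2((CPM + 1)/(CPM + 1)) of day 15 over day 10 and were computed on all genes, with the threshold and level filter given in the text. The fold calling step was tested on simulated data. With 1 library per group no p-value was computed. TMM factors came from edgeR 4.0.16 in R 4.3.3, and other values from Python 3.11.15, NumPy 2.4.6, SciPy 1.17.1 and pandas 2.3.3.

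Members were described by class if they reached 5 CPM and 20 UMIs in a class of at least 40 cells or in a whole library. In the partner lists the genes past 2-fold in ENCCs were named, and TLN1, ILK, FERMT2 and NID1 were added after their values were seen. The members and lists were chosen with earlier results of these data known. One transcript gives about 1 UMI whatever its length, so levels of different genes were set on 1 scale, though capture can differ between genes, and splice variants were not resolved. Alternatives were TMM scaling, a pseudocount of 5 CPM, no level filter, a filter of 20 CPM, kept cells only, numbered subclusters only, phase G1 only, equal weight per cell, thinning to 5000 UMIs, no thinning and at least 2 UMIs per cell. Those without shared barcodes, ITGAE, ITGB1 or FN1 were added after seeing the data. Gene spans are from GENCODE v29 (GRCh38) and promoters from RefSeq (GRCh38.p14). The values of some genes are not reported here.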

Additional observations from a re-analysis of the deposited data

Results flagged for a closer look

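Cells that the authors' quality filters had removed are in no annotated class, and 3 members were at least 2-fold higher there than in the kept cells of the same library. At day 15 TNC was at 21.3 CPM in the 984 removed cells (19.5 to 23.2, 524 UMIs) and 3.13 CPM in the 5336 kept cells (2.70 to 3.61, 189 UMIs). LAMA5 was at 8.32 CPM (7.22 to 9.54) in the removed and 2.01 CPM (1.66 to 2.40) in the kept day 15 cells. ITGA7 was at 8.04 CPM (6.96 to 9.24) in the removed and 1.04 CPM (0.802 to 1.34) in the kept day 15 cells, and at 7.53 CPM (6.21 to 9.04) and 3.13 CPM (2.68 to 3.63) at day 10. Over the annotated day 15 classes TNC was highest in CP1 (59.9 CPM), LAMA5 in NEP (25.3 CPM, with CP1 at 13.4 CPM) and ITGA7 in CP2 (12.4 CPM, 5 UMIs, with CP1 at 11.3 CPM). The removed day 15 cells had a median of 21367 UMIs and the kept cells a median of 11089. The neuroblast markers together were at 1122 CPM in the removed and 165 CPM in the kept day 15 cells. The CP markers were at 275 and 37.4 CPM, and the ENCC markers at 649 and 1076 CPM. The parts of depth and of cell content in these levels were not tested.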

How the results depend on the processing

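With 1 library per group, replicates could not be left out, and the values give no account of the spread between cultures. No paired analysis was possible because the 2 groups hold 1 library each and no test was made. The TMM factors shifted log2 ratios of CPM by 0.19 in ENCCs and by 0.20 in the whole libraries, and by less for low genes on the CPM + 1 scale, and moved ITGA9, at -0.11 within overlapping intervals, above 0. The main setting called 4 of 13 members higher and 0 lower in day 15 ENCCs. With a pseudocount of 5 CPM 1 of 13 was higher, against 5.16% of all genes. With a filter of 20 CPM only 5 members were tested and 1 was higher, against 8.19% of all genes. In phase G1 14 were tested. Of these, 2 were higher (ITGB1 and LAMA4) against 8.66% of all genes, and 1 was lower against 8.93%. Without a filter 37 were tested, 4 were higher against 4.43%, and 1 was lower against 3.83%. In the whole libraries the 3 higher became 5 under TMM scaling (ITGA4 and FN1 added) and 1 with a filter of 20 CPM. In kept cells alone they became 2 (TNC lost, its log2 ratio 1.74). The 1 lower became 0 with the filter of 20 CPM and 2 in kept cells (LAMA5 added, at -1.14). The shares of all genes under these whole-library settings are not given, so these counts are no result about the members as a group. The log2 ratio of the integrin sum was 0.90 under TMM scaling, 0.59 in G1, 1.11 without ITGAE and 0.12 without ITGB1. That of the laminin sum was 0.63 and 0.34 under TMM scaling and in G1. That of FN1, VTN and TNC was 1.17 in numbered subclusters, 0.02 in G1 and -1.81 without FN1. The last value rests mostly on VTN UMIs of the unnumbered day 10 ENCCs. Shares of ENCCs with an ITGB1 UMI at day 10 and day 15 were 24.6% and 58.2% at 5000 UMIs, 33.8% and 83.2% without thinning and 1.38% and 10.3% for at least 2 UMIs. For ITGA4 these were 18.3% and 26.2%, 25.4% and 47.0%, and 0.61% and 1.5%. Leaving out the shared barcodes changed no count of members past 2-fold.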
